A study of Mus musculus with 10 samples.

Results

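Igf2r, Slc22a2, Slc22a3, Grb10, Ddc and Cobl are genes of 2 imprinted neighbourhoods of the mouse genome, around Igf2r on chromosome 17 and around Grb10 on chromosome 11. The 6 genes were chosen by name, and every probe set that the array's probe table pairs with exactly 1 of these symbols was taken, which gave 10 of 45101 probe sets. Of the 18194 genes with a probe set of their own these were 5, Igf2r with 2 probe sets, Slc22a2 with 1, Grb10 with 3, Ddc with 2 and Cobl with 2. The probe table lists none for Slc22a3, so that gene was not analysed here. RNA was measured on Affymetrix GeneChip arrays in 3 groups of mouse cells. AG-haESC are haploid embryonic stem cells from androgenetic blastocysts, which hold a paternal genome and no maternal one. They were measured as 5 lines of C57BL/6J genotype with 1 array each. AG-haESC replicates 1, 2, 4 and 5 carried an Oct4-EGFP transgene and AG-haESC replicate 3 an Actin-EGFP transgene, at passages 12 to 15. E14 is a wild-type diploid male embryonic stem cell line of 129/Sv genotype, measured on 3 arrays at passage 17. MEF are wild-type diploid embryonic fibroblasts of B6D2F1 genotype from male d13.5 embryos, measured on 2 arrays at passage 2. All 3 groups were sorted by DNA content with the dye Hoechst 33342 (15 µg/ml), for the 1n peak in AG-haESC and the 2n peak in E14 and MEF. AG-haESC grew on feeder cells with CHIR99021 and PD0325901, and the labels name no medium for E14 or MEF. Parental origin, ploidy, strain, transgene and passage differ together between AG-haESC and E14 and cannot be told apart. Culture conditions may differ with them.

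Genomic imprinting leaves an allele active or silent according to the parent it came from. Igf2r encodes the cation-independent mannose 6-phosphate receptor, which carries acid hydrolases to the lysosome and removes the growth factor Igf2 from the cell surface for degradation. It is maternally expressed in most mouse tissues, where the antisense noncoding RNA Airn, transcribed from the paternal chromosome, silences it. In undifferentiated mouse embryonic stem cells Igf2r is known to be expressed from both alleles, and Airn is switched on as the cells differentiate. Slc22a2 and Slc22a3 are transporters of organic cations and come under the same control in the placenta. Grb10 is an adaptor protein that binds the insulin and IGF receptors and dampens their signal, and it is maternally expressed in most mouse tissues and paternally expressed in neurons. Its neighbour Ddc encodes the decarboxylase that makes dopamine and serotonin, with a transcript known to be paternally expressed in the mouse heart. Cobl encodes cordon-bleu, a protein that starts actin filaments, and maternal expression was reported for it in the mouse yolk sac.

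The promoter windows of the 4 genes with a measurable signal are shown because those genes fall into 2 pairs with opposite patterns across the groups. Igf2r and Grb10 were highest in MEF, while Ddc and Cobl were highest in the stem cells. Each window covers 250 bases before to 50 bases after a RefSeq transcript start (GRCm38.p6), is written 5′ to 3′ on the minus strand and has its CG pairs, the sites of CpG methylation, in capitals.
Grb10, chr11:12037371-12037670: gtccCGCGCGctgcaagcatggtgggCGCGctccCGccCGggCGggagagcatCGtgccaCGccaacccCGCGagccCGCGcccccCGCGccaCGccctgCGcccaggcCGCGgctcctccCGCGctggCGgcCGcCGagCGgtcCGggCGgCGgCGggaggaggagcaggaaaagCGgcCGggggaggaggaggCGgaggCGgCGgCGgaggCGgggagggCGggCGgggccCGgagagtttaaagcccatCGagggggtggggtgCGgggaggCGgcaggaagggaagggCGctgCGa
Igf2r, chr17:12769657-12769956: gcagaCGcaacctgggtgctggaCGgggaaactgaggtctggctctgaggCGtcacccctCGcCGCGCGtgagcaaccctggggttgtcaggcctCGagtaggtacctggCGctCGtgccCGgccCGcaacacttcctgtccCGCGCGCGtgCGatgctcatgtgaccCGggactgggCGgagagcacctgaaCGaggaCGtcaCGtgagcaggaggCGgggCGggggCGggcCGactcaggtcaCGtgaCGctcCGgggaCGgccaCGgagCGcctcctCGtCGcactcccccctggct
Cobl, chr11:12464911-12465210: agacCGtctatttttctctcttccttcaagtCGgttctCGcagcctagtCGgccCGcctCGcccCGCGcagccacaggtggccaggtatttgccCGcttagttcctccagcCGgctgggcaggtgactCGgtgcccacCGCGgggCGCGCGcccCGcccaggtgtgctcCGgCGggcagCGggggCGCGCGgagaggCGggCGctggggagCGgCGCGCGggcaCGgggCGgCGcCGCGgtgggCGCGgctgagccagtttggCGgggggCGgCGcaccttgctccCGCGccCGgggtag
Ddc, chr11:11898095-11898394: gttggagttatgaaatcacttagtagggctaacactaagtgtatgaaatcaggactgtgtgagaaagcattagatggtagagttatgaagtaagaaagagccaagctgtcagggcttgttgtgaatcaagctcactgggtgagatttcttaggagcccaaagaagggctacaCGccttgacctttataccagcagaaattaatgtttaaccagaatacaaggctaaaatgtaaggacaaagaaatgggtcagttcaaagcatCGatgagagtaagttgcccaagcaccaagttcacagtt
The Grb10 window held 45 CG pairs, the Cobl window 42 and the Igf2r window 34, against a median of 7 over 32851 RefSeq windows of the same length. Of these windows, 1.93% held at least as many as Grb10, 3.03% as many as Cobl and 7.73% as many as Igf2r. The Ddc window held 2 CG pairs, and 85.9% of windows held at least that many. The GC box, read as GGGCGG on either strand and overlapping the CG count, occurred 5 times in Grb10, 3 times in Cobl and 3 times in Igf2r, and 35.7% of windows held it at least once. The letters TATAAA, on either strand, were found in the Ddc window and in none of the other 3 shown, and 13.6% of windows held them. Thus CG-rich windows stood on both sides of the split in expression. RefSeq lists a second window for Grb10, for Ddc and for Cobl, with 9, 5 and 0 CG pairs, and the windows of Slc22a2 and Slc22a3 held 8 and 5.

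Values are log2 of the authors' MAS5 signal, and differences are differences of mean log2 signal with the standard error of a limma fit over 27505 probe sets. Only probe sets brighter than the median of their array in 2 or more of the 10 arrays were fitted. To be called, a probe set needed a Benjamini-Hochberg adjusted p under 0.05 together with a change of 2-fold or more. Array medians ran from 55.9 to 68.0 on the linear scale, or 5.81 to 6.09 in log2. Of 14 measured pluripotency markers, none lay below the median in every array of AG-haESC or of E14, while 12 did in MEF. The 19 measured fibroblast markers summed to signals of 19690 to 27730 in AG-haESC, 17517 to 21940 in E14 and 226232 to 266108 in MEF. E14 replicate 3 stood apart, with Pearson's r across probe sets of 0.919 and 0.909 to E14 replicates 1 and 2, which had 0.959 between them, so the fit was repeated without it, and its effect is given with the results.

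Grb10 was the member gene that differed between the haploid and the diploid stem cells. On its brightest probe set, 1425458_a_at, the AG-haESC lines read 9.61, 9.22, 9.28, 9.20 and 8.77, against 10.97, 11.00 and 11.53 in E14 and 14.02 and 13.92 in MEF. The groups did not overlap in any pair, and the order from low to high was AG-haESC, E14 and MEF. Grb10 was lower in AG-haESC than in E14 by a difference of -1.95 ± 0.19 (adjusted p = 8.47e-05, n = 5 and n = 3, limma), which is 3.87-fold. Without E14 replicate 3 the difference was -1.77, and over 17 alternatives, which changed the processing or left out 1 array, it ran from -2.05 to -1.77 with adjusted p between 7.09e-06 and 0.000978. Of the 19 fibroblast markers, 6 were higher, 1 was lower and 12 were not called between AG-haESC and E14, where 4.38% of 13251 genes were called as higher and 3.61% as lower. Without E14 replicate 3 the counts were 10 higher and 2 lower, while the shares above are those with all 10 arrays. Over all 27505 probe sets, leaving out 1 array gave 964 to 1553 higher and 484 to 1040 lower, against 1202 and 795 with all arrays. The 10 tested neural markers summed to signals of 7214 to 9694 in AG-haESC, 9846 to 15128 in E14 and 7193 to 7925 in MEF. The highest of these sums was that of E14 replicate 3. Between the stem cells their median difference was -0.85, with 1 called as lower, Elavl3, named after its values were seen, and 9 not called. The count of lower fell to 0 in some fits with 1 array left out, such as that without E14 replicate 1. The part of either marker list in the Grb10 value was not tested. In bulk RNA, fewer cells that express a gene and less of its RNA per cell cannot be told apart.

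The other Grb10 probe sets were dimmer and gave smaller differences. On 1430164_a_at the AG-haESC lines read 5.63, 6.09, 6.32, 6.36 and 5.63, against 6.44, 6.54 and 6.98 in E14 and 9.58 and 9.12 in MEF. Again each AG-haESC line lay below each E14 array, but the difference of -0.65 ± 0.27 did not pass (adjusted p = 0.149) and was -0.49 without E14 replicate 3. On 1425457_a_at the AG-haESC lines read 4.51, 6.42, 5.74, 5.39 and 5.71, against 5.20, 5.81 and 6.64 in E14 and 8.97 and 8.45 in MEF. Here the stem cell groups overlapped and 1 array of each lay above its array median, with a difference of -0.33 ± 0.44 (adjusted p = 0.683) that was 0.051 without E14 replicate 3. The call of Grb10 between AG-haESC and E14 therefore rests on 1 of its 3 probe sets.

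**Figure D1:**
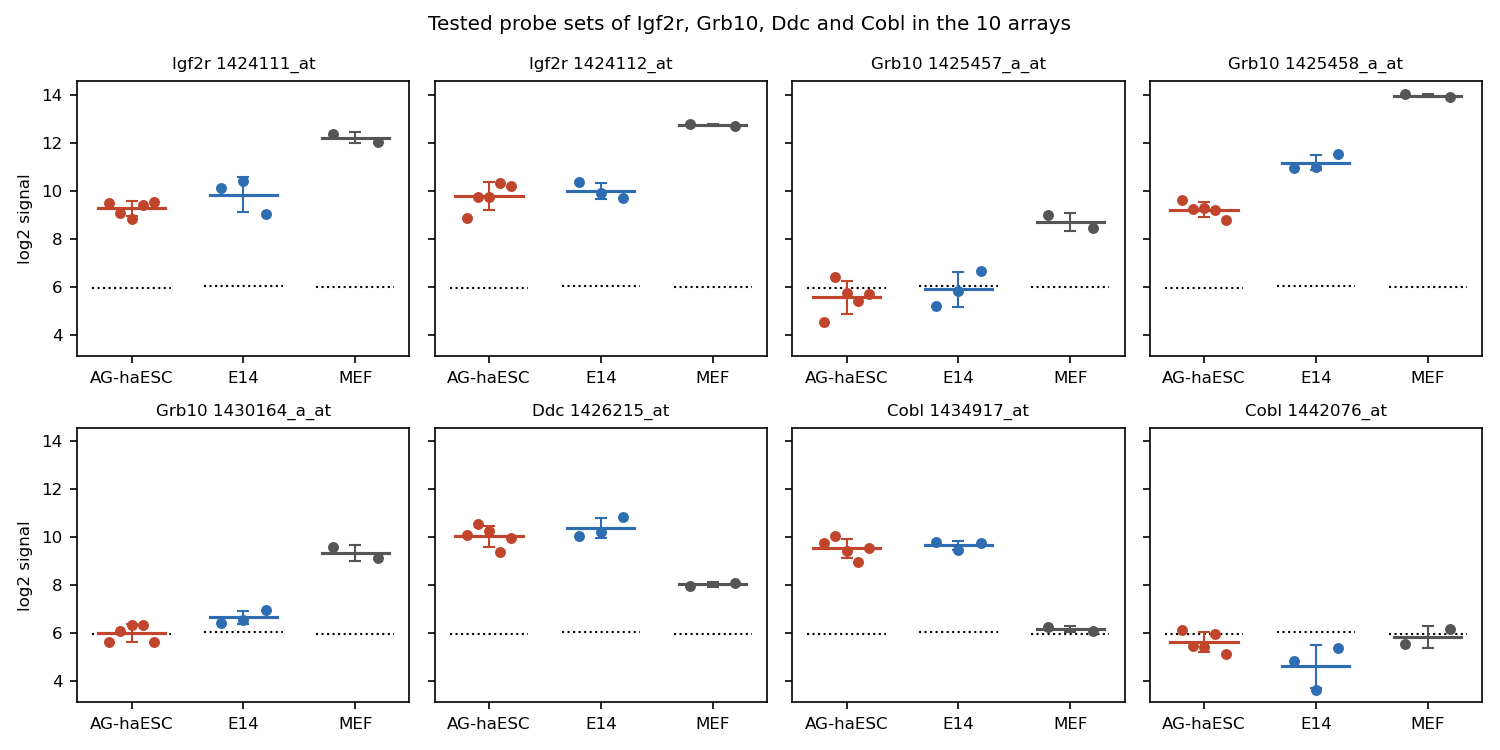
Log2 signal (vertical axis) of the 8 tested probe sets of Igf2r, Grb10, Ddc and Cobl in AG-haESC, E14 and MEF. Points are arrays, solid lines group means, error bars the SD, and dotted lines the mean of the array medians. Grb10 on 1425458_a_at steps up from AG-haESC to E14 to MEF, the Igf2r panels step up in MEF, and Ddc 1426215_at and Cobl 1434917_at step down in MEF.

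Igf2r did not pass the test between AG-haESC and E14 on either probe set. On 1424112_at, the brighter, the AG-haESC lines read 8.87, 9.75, 9.75, 10.32 and 10.22, against 10.35, 9.91 and 9.72 in E14 and 12.78 and 12.71 in MEF. The stem cell groups overlapped, with a difference of -0.21 ± 0.28 (adjusted p = 0.682) that was -0.35 without E14 replicate 3 and 0.016 without AG-haESC replicate 1, the lowest line. On 1424111_at the AG-haESC lines read 9.50, 9.06, 8.83, 9.39 and 9.54, against 10.10, 10.41 and 9.02 in E14 and 12.38 and 12.05 in MEF, a difference of -0.58 ± 0.29 between the stem cells (adjusted p = 0.218). E14 replicate 3 lay among the AG-haESC lines, and without it the groups no longer overlapped and the difference was -0.99 (adjusted p = 0.0091), just short of 2-fold. With limma's array weights, which count noisier arrays less, it was -0.90 (adjusted p = 0.0061). For Igf2r the order was thus MEF highest, and AG-haESC and E14 were separated by neither probe set with equal weights on the 10 arrays, but on 1424111_at with array weights or without E14 replicate 3, in both cases by less than 2-fold.

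Ddc and Cobl, the neighbours of Grb10, did not pass the test between AG-haESC and E14 either. Ddc on 1426215_at read 10.09, 10.55, 10.26, 9.37 and 9.96 in AG-haESC, against 10.05, 10.24 and 10.84 in E14 and 7.97 and 8.10 in MEF. Its stem cell groups overlapped, with a difference of -0.33 ± 0.25 (adjusted p = 0.439), or -0.10 without E14 replicate 3. Cobl on 1434917_at read 9.75, 10.05, 9.42, 8.97 and 9.54 in AG-haESC, against 9.81, 9.46 and 9.75 in E14 and 6.27 and 6.07 in MEF, and the difference between the stem cells was -0.13 ± 0.23 (adjusted p = 0.762), or -0.090 without E14 replicate 3. The second Cobl probe set, 1442076_at, lay near or below the array medians throughout, at 6.13, 5.45, 5.41, 5.97 and 5.14 in AG-haESC, 4.82, 3.63 and 5.38 in E14 and 5.53 and 6.16 in MEF. It passed in none of the 3 comparisons by limma, and at this signal its differences hold much background. Slc22a2 lay below the array median in each of the 10 arrays, between 1.04 and 4.82 in AG-haESC, 2.52 and 2.91 in E14 and 0.98 and 2.16 in MEF, as did the second Ddc probe set 1430591_at. Neither entered the fit, and no fold is given for them.

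Over the 8 tested probe sets, 1 was called between AG-haESC and E14, as lower, where 7.26% of the 27505 probe sets were called, 4.37% as higher and 2.89% as lower. The groups' arrays did not overlap for 2 of the 8, both of Grb10, where the share over all tested probe sets was 20.2%. The lines varied by a median SD of 0.41 over the 8 probe sets, against 0.34 over all tested probe sets. Among the lines Grb10 1425458_a_at spread over 0.84, Igf2r 1424112_at over 1.44 and Grb10 1425457_a_at over 1.90. AG-haESC replicate 1, for example, was highest for Grb10 on 1425458_a_at and lowest on 1425457_a_at. On 1425457_a_at 1 of the 5 lines lay above its array median, so its order and spread hold much background. No common order of the lines was seen across the Grb10 probe sets, and the part of background in this was not tested.

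MEF are the somatic cells of the series. Igf2r and Grb10 were lower in AG-haESC than in MEF on each of their 5 probe sets, and Ddc and Cobl were higher on their brightest. Of the 8 probe sets Grb10 1425458_a_at differed most, by -4.76 ± 0.22 (adjusted p = 2.32e-08), which is 27.0-fold. Its other probe sets gave -3.16 ± 0.51 and -3.34 ± 0.31 (adjusted p = 0.000292 and 4.7e-06). Igf2r was lower by -2.96 ± 0.33 on 1424112_at and -2.95 ± 0.33 on 1424111_at (adjusted p = 1.58e-05 and 1.66e-05), so its probe sets agree within their errors. Cobl was higher in AG-haESC by 3.37 ± 0.26 (adjusted p = 1.07e-06) and Ddc by 2.01 ± 0.29 (adjusted p = 0.000134).

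E14 stood from MEF in the same directions. Its differences were -2.80 ± 0.24 for Grb10 1425458_a_at (adjusted p = 2.63e-06), -2.75 ± 0.36 for Igf2r 1424112_at (adjusted p = 6.47e-05), 3.50 ± 0.28 for Cobl 1434917_at (adjusted p = 1.93e-06) and 2.34 ± 0.32 for Ddc (adjusted p = 9.43e-05). Without E14 replicate 3 these 4 differences were -2.98, -2.61, 3.46 and 2.11. The second Cobl probe set, 1442076_at, was then called as lower, at -1.62 (adjusted p = 0.0388). Both comparisons share the MEF arrays, so they are no independent support for each other. In each, 7 of the 8 tested probe sets were called, where 39.2% of probe sets were called for AG-haESC against MEF and 38.9% for E14 against MEF. Of these 7, 2 were higher and 5 lower, where AG-haESC had 19.2% of all tested probe sets higher and 20.0% lower, and E14 19.8% higher and 19.1% lower. The arrays of AG-haESC and MEF did not overlap for these 7, against 65.0% of all tested probe sets, and those of E14 and MEF for 8 of 8, against 69.9%. The fibroblast markers, which summed to more than in either stem cell group in each MEF array, moved with Igf2r and Grb10, and their part in these values was not tested.

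**Figure D2:**
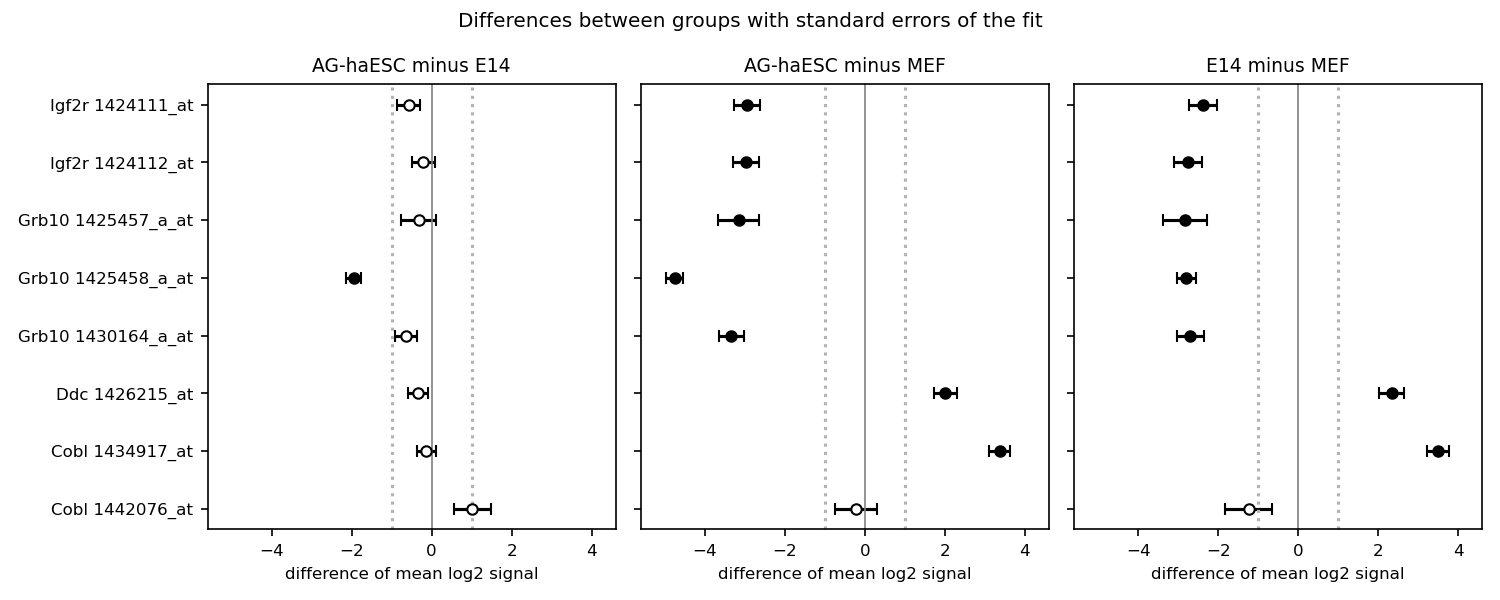
Difference of mean log2 signal (horizontal axis) of the 8 tested probe sets in the 3 comparisons. Bars are the standard error of the fit, filled points passed both the adjusted p and 2-fold, open points did not, and dotted lines mark 2-fold. In AG-haESC minus E14 the filled point is Grb10 1425458_a_at at -1.95, and in both comparisons with MEF 7 of 8 points are filled.

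The genes next to the members were read from the order of the gene table. Around Igf2r, of 19 neighbours 4 were tested, and none was called between AG-haESC and E14 by limma, nor did any reach an unadjusted p below 0.05. Airn, the antisense RNA that starts inside Igf2r, was measured by 5 probe sets of its own, of which 3 were tested. On its brightest, 1436627_at, it read 5.89, 5.56, 6.40, 7.24 and 6.78 in AG-haESC, against 5.52, 5.25 and 6.22 in E14 and 7.78 and 7.88 in MEF. The stem cell groups overlapped near the array medians, and the difference of 0.71 ± 0.40 did not pass (adjusted p = 0.274). On 1451634_at Airn differed by 0.87 ± 0.48 (adjusted p = 0.265), and with array weights by 1.42 (adjusted p = 0.0279). Airn was lower in AG-haESC than in MEF by -1.46 ± 0.45 on 1436627_at (adjusted p = 0.0176) and -2.27 ± 0.55 on 1451634_at (adjusted p = 0.00433). The first of these calls was lost without MEF replicate 1 or MEF replicate 2 (adjusted p = 0.0824 and 0.105). E14 was lower than MEF by -2.17 ± 0.49 on 1436627_at (adjusted p = 0.00339). Where a group lay below the array medians throughout, a fold is given as a lower bound, with that group put at the medians. On the third Airn probe set, 1456139_at, both stem cell groups lay below the medians and MEF at 6.28 and 6.04, so Airn was at least 1.15-fold lower in AG-haESC (adjusted p = 0.0432) and at least 1.09-fold lower in E14 (adjusted p = 0.00466). The call for AG-haESC was lost on leaving out any AG-haESC or MEF array (adjusted p between 0.0517 and 0.193), and both calls were lost with low signals raised to the array median, at -0.21 and -0.13. Pnldc1, an exonuclease gene known for trimming piRNAs, was at least 6.43-fold higher in AG-haESC and at least 8.54-fold higher in E14 than in MEF, and Mrpl18 of the mitochondrial ribosome was higher by 1.38 ± 0.17 and 1.57 ± 0.18.

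Around Grb10, of 22 neighbours 4 were tested. LOC102631979, a noncoding RNA that the gene table places inside Grb10, followed the order of Grb10. It read 4.80, 5.38, 4.11, 6.10 and 4.24 in AG-haESC, against 6.65, 6.36 and 7.44 in E14 and 9.42 and 8.83 in MEF. The groups did not overlap, and the difference between the stem cells was -1.89 ± 0.46 (adjusted p = 0.0218). In AG-haESC 1 of its 5 arrays lay above the array median, so the value there is near background. The call was lost without E14 replicate 1 (adjusted p = 0.0582), without E14 replicate 3 (adjusted p = 0.0572) and when signals under the array median were raised to it, which gave -0.83. Against MEF it was lower by -4.20 ± 0.53 in AG-haESC (adjusted p = 4.68e-05) and by -2.31 ± 0.58 in E14 (adjusted p = 0.00597), the second of which was lost without MEF replicate 1 (adjusted p = 0.063). Whether its probe set reads a transcript of its own or RNA of Grb10 was not tested. Fignl1, an ATPase of DNA repair next to Ddc, stood at 11.78 ± 0.20 in AG-haESC, 11.57 ± 0.26 in E14 and 9.01 ± 0.29 in MEF (SD, n = 5, n = 3 and n = 2). Like Ddc and Cobl it was higher in the stem cells, by 2.77 ± 0.19 in AG-haESC and 2.57 ± 0.20 in E14 (adjusted p = 3.89e-07 and 1.74e-06).

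Grb10 has close relatives in Grb7 and Grb14, adaptors of the same family. Grb7 read 6.39, 7.59, 6.85, 5.85 and 6.49 in AG-haESC, against 8.13, 8.97 and 9.63 in E14 and 1.46 and 2.45 in MEF. It was lower in AG-haESC than in E14 by -2.28 ± 0.45 (adjusted p = 0.00705) without overlap, and by -1.92 without E14 replicate 3, but unlike Grb10 it was lowest in MEF. Both MEF arrays lay below their medians, so Grb7 was at least 1.57-fold higher in AG-haESC and at least 7.61-fold higher in E14. With low signals raised to the array median its call for AG-haESC against MEF was lost (adjusted p = 0.229). Grb14 stood at 6.99 ± 0.42 in AG-haESC, 7.29 ± 0.22 in E14 and 9.70 ± 0.29 in MEF, with adjusted p = 0.518 between the stem cells and differences of -2.71 ± 0.30 and -2.41 ± 0.33 from MEF.

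Of 21 tested genes of the GRB adaptors and the insulin signalling chain, Grb7 was the 1 called between AG-haESC and E14, where 4.38% of 13251 genes were higher and 3.61% lower. The median difference of the list was -0.26, against -0.08 over all genes tested. Against MEF, AG-haESC had 1 higher and 6 lower, with the same counts in E14. Of the 13251 genes, AG-haESC had 19.6% called as higher and 22.5% as lower, and E14 had 20.8% as higher and 21.1% as lower. The same shares stand beside the counts of each list below, and no list was tested as a set. Akt1, a kinase of the insulin chain, was lower by -2.63 ± 0.21 in AG-haESC and -2.70 ± 0.23 in E14.

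Igf2, the growth factor that Igf2r removes, was high in MEF, as was Igf2r. On 1448152_at it read 8.47, 9.77, 9.20, 8.31 and 8.27 in AG-haESC, against 6.92, 8.27 and 9.12 in E14 and 14.59 and 14.50 in MEF, and the stem cell groups overlapped. Their difference of 0.70 ± 0.45 did not pass (adjusted p = 0.35), was 1.21 without E14 replicate 3 and was called with array weights (adjusted p = 0.0124). Igf2 was lower in AG-haESC than in MEF by -5.74 ± 0.52 (adjusted p = 3.59e-06), which is 53.5-fold, and lower in E14 by -6.45 ± 0.57 (adjusted p = 3.54e-06). On the dimmer Igf2 probe set, 1415931_at, both stem cell groups lay below the array medians. There the difference between them was 0.087 ± 0.43 (adjusted p = 0.923, limma), and 0.14 without E14 replicate 3. Igf1r, the signalling receptor for Igf2, stood at 7.63 ± 0.24 in AG-haESC, 8.07 ± 0.17 in E14 and 11.27 ± 0.08 in MEF on 1452982_at, without overlap, and the -0.44 ± 0.18 between the stem cells did not pass (adjusted p = 0.145). On 1426565_at and 1428967_at the stem cell groups overlapped, with differences of 0.35 ± 0.25 and -0.41 ± 0.23 (adjusted p = 0.409 and 0.286). On 1452108_at both stem cell groups lay below the array medians. The insulin receptor Insr stood at 7.76 ± 0.47, 7.60 ± 0.64 and 9.19 ± 0.39 in AG-haESC, E14 and MEF. Its difference of -1.44 ± 0.38 from MEF in AG-haESC (adjusted p = 0.00733) was no longer called without MEF replicate 1 (adjusted p = 0.0961).

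The IGF list had 16 tested genes. Beside ligands, receptors and IGF-binding proteins it held Irs1, Irs2, Igf2bp1, Igf2bp3, Pappa and Pappa2, which are none of these. Of the 16 genes, 1 was higher and 1 lower in AG-haESC than in E14. Over 13251 genes 4.38% were higher and 3.61% lower. The median difference was 0.01. Igfbp7, a secreted IGF-binding protein, was higher by 1.29 ± 0.34 (adjusted p = 0.0278), a call that did not hold when AG-haESC replicate 3 was left out (adjusted p = 0.061), nor when E14 replicate 1 or 2 was (0.12 and 0.093), nor without limma's trend (0.0578). Irs1, the docking protein of the insulin and IGF receptors, was lower by -1.06 ± 0.21 (adjusted p = 0.00759) and fell short of 2-fold without E14 replicate 3, at -0.96, with array weights, with a pseudocount of 32 and with low signals raised. Irs2 was higher by 2.19 ± 0.67 with overlap and did not pass (adjusted p = 0.0539), and 1 of its 3 E14 arrays lay above the array median. Without E14 replicate 3 the number higher was 2, by the entry of Irs2, and Igfbp4 was lower. Irs2 was also called with 1 probe set per gene, array weights, a pseudocount of 32, quantile normalization or a filter at 2 times the median. Igfbp4 was also called as lower with array weights. Both were named after their values were seen. Against MEF, AG-haESC had 2 higher and 11 lower, and E14 had 2 higher and 13 lower, with medians of -4.36 and -3.55. The binding protein Igfbp5 was lower by -7.79 ± 0.40 and -7.77 ± 0.43, Igf1 was at least 58.4-fold lower in AG-haESC, Igfbp7 was lower by -6.67 ± 0.42 in E14, and Pappa, a protease that cuts IGF-binding proteins, was at least 67.1-fold lower in AG-haESC and at least 63.5-fold lower in E14.

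**Figure D3:**
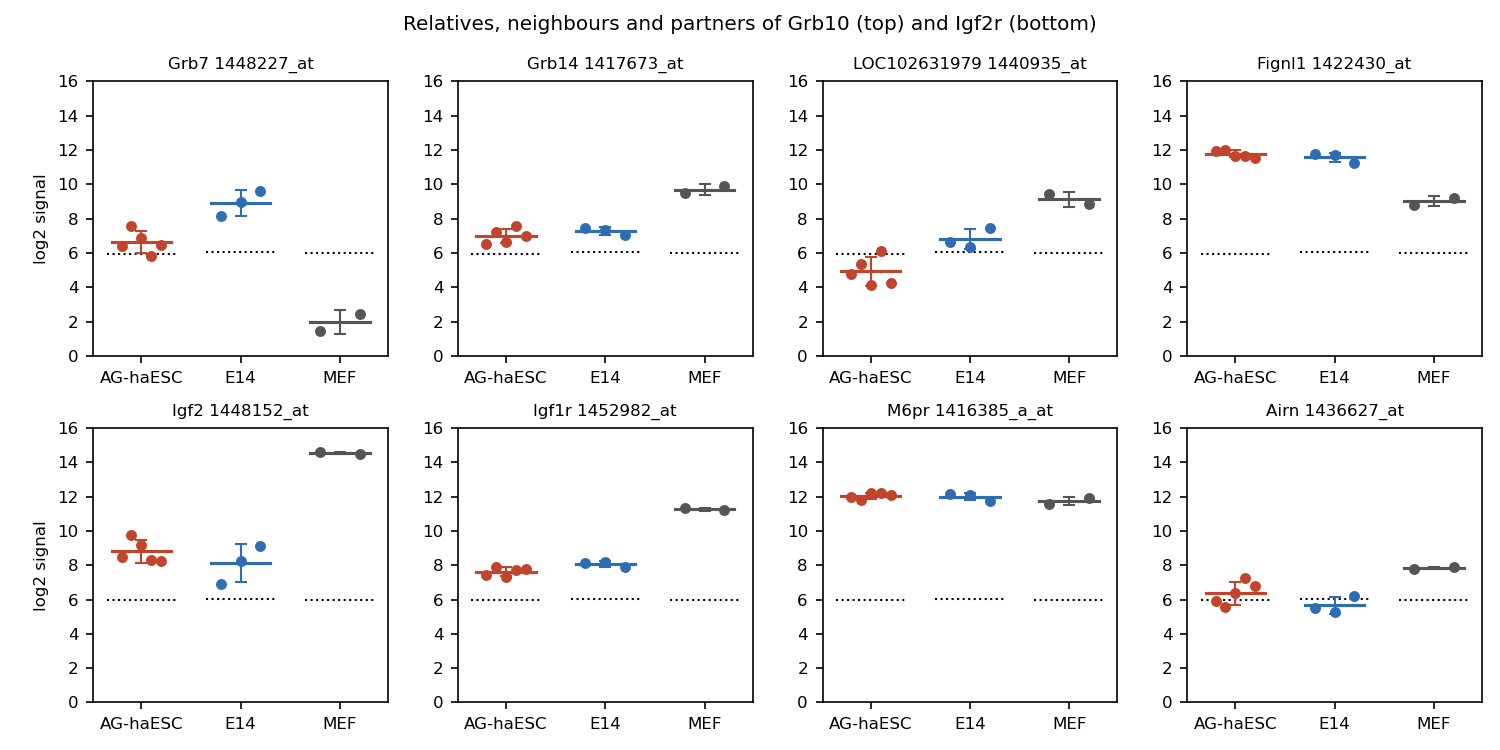
Log2 signal (vertical axis, from 0 to 16) of relatives and neighbours of Grb10 in the top row and of partners and the antisense RNA of Igf2r in the bottom row, in AG-haESC, E14 and MEF. Points are arrays, solid lines group means, error bars the SD and dotted lines the mean of the array medians. Grb7 is lower in AG-haESC than in E14 and lowest in MEF, LOC102631979 rises in the order AG-haESC, E14 and MEF, and M6pr is near 12 in each group.

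Igf2r shares its cargo with M6pr, the small mannose 6-phosphate receptor. M6pr on 1416385_a_at read 11.98, 11.79, 12.22, 12.19 and 12.12 in AG-haESC, against 12.13, 12.11 and 11.77 in E14 and 11.58 and 11.91 in MEF, and passed in none of the 3 comparisons (adjusted p = 0.841, 0.12 and 0.238). On its dimmer probe set 1416386_a_at it was higher by 1.12 ± 0.17 in AG-haESC than in MEF and by 1.24 ± 0.19 in E14, opposite in direction to Igf2r. Of 20 tested genes of mannose 6-phosphate sorting, 0 were called between AG-haESC and E14 by limma, 7 with an unadjusted p below 0.05. Against MEF, AG-haESC had 0 higher and 3 lower, and E14 had 1 higher and 3 lower, the count of higher being 2 without E14 replicate 1, E14 replicate 3 or MEF replicate 1. Over 13251 genes AG-haESC had 19.6% higher and 22.5% lower, and E14 20.8% higher and 21.1% lower. Furin, a protease of the trans-Golgi network, was lower by -1.76 ± 0.30 in AG-haESC and -1.81 ± 0.33 in E14. Plaur, the urokinase receptor, was lower by -2.02 ± 0.53 and -2.10 ± 0.58, calls lost without MEF replicate 2 (adjusted p = 0.0727 and 0.0766). Of the GGA adaptors that sort the receptors, Gga1 was lower by -1.15 ± 0.24 in AG-haESC, which quantile normalization took under 2-fold, at -0.91, and Gga3 was higher by 1.23 ± 0.21 in E14.

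Of 27 tested lysosomal hydrolases, which reach the lysosome on the mannose 6-phosphate receptors, 19 were lower in AG-haESC than in MEF and 0 higher, and in E14 19 were lower, 16 without E14 replicate 3, and 0 higher. The medians were -1.48 and -1.37, against 0.0045 and 0.080 over all genes. Without AG-haESC replicate 4, 1 was higher in AG-haESC. The cysteine protease Ctss was at least 17.1-fold lower in AG-haESC and at least 16.1-fold lower in E14, Ctsh was lower by -4.86 ± 0.61 and -4.10 ± 0.67, Arsb by -4.10 ± 0.32 in AG-haESC, and Ctsk was at least 14.7-fold lower in E14. Between AG-haESC and E14, 1 was higher and 2 were lower, with a median of -0.08, where 4.38% of 13251 genes were higher and 3.61% lower. Without E14 replicate 3 the count of lower was 3, by the entry of Ctsh at -1.65 (adjusted p = 0.0037). Ctsh was named for this comparison after its values were seen. Gla, the X-linked α-galactosidase, was higher by 1.23 ± 0.14 (adjusted p = 0.000299), and the cathepsin Ctsz was lower by -1.22 ± 0.19 (adjusted p = 0.00165). Arsa, a sulfatase, was lower by -1.16 ± 0.29 (adjusted p = 0.0225), which was no longer called without AG-haESC replicate 3, where it was -0.97, or when E14 replicate 1 or 2 was left out (adjusted p = 0.0966 and 0.0955).

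Of 14 organic cation and monoamine transporters 7 were tested, and 2 were lower in AG-haESC than in E14, where 3.61% of 13251 genes were lower. Slc47a1, an exporter of organic cations, was lower by -1.77 ± 0.42 (adjusted p = 0.0194), a call lost without E14 replicate 3 (adjusted p = 0.0619). Slc22a18, another imprinted and maternally expressed gene, was at least 1.60-fold lower (adjusted p = 0.044), a call that failed on leaving out a single one of AG-haESC replicates 1, 2, 4 and 5 or of the E14 arrays (adjusted p between 0.0565 and 0.163). It was also lost without the filter (adjusted p = 0.0645), and with low signals raised to the array median it was -0.68, under 2-fold. The count of lower was 1 when AG-haESC replicate 2 or 4 or E14 replicate 2 or 3 was left out. Without E14 replicate 3 that 1 was Slc29a4, a monoamine transporter named after its values were seen, at -1.03 (adjusted p = 0.00784), which also entered without AG-haESC replicate 1 or 5 or E14 replicate 1. Against MEF, Slc47a1 was at least 1.28-fold higher in AG-haESC and at least 4.36-fold higher in E14. With low signals raised to the array median the first of these calls was lost (0.42, adjusted p = 0.35), which left 0 higher in AG-haESC. Slc22a18 was at least 1.57-fold higher in E14, a call lost without E14 replicate 2 or MEF replicate 2 and with low signals raised. The number higher in AG-haESC was 2, by the entry of Slc29a4, when AG-haESC replicate 2 or 3 or MEF replicate 1 was left out, and 3 with quantile normalization. Slc22a15 was at least 2.29-fold lower in AG-haESC, a call lost without either MEF array (adjusted p = 0.0517 and 0.0538), and lower by -2.82 ± 1.01 in E14, lost without E14 replicate 2, E14 replicate 3 or either MEF array, in the 2-group fit, with array weights and with low signals raised.

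Of 16 genes of monoamine synthesis and breakdown 11 were tested, and 1 was higher in AG-haESC than in E14, where 4.38% of 13251 genes were higher. Pnmt, which turns noradrenaline into adrenaline, was higher by 1.05 ± 0.29 (adjusted p = 0.0361). It failed on leaving out any single AG-haESC line, E14 replicate 1 or E14 replicate 3 (adjusted p between 0.0552 and 0.122), which left 0 higher, and it failed in the 2-group fit, with array weights, a pseudocount of 32, no filter or low signals raised. Conversely 1 gene was lower on leaving out AG-haESC replicate 1, 2, 4 or 5 or E14 replicate 1 or 2, and 0 with all arrays. It was Maob without AG-haESC replicate 4 and otherwise Aldh2, named after their values were seen. Against MEF, AG-haESC had 3 higher and 2 lower, and E14 had 2 higher and 1 lower. Qdpr, which regenerates tetrahydrobiopterin, the cofactor of the hydroxylases upstream of Ddc, was higher by 1.55 ± 0.13 in E14, and Aldh2 was lower by -1.31 ± 0.23 in AG-haESC. Maob was lower by -2.35 ± 0.75 and Pcbd1 higher by 1.38 ± 0.45 in AG-haESC, and both calls were lost without either MEF array, that of Maob also with low signals raised, at -0.97. In E14 Pcbd1 was higher by 1.30 ± 0.49 and Pnmt lower by -1.01 ± 0.36. The Pcbd1 call was lost without any 1 of E14 replicates 1 and 2 or the MEF arrays, and the Pnmt call without any 1 of E14 replicates 1 and 3 or the MEF arrays. Pcbd1 was also lost in the 2-group fit, without the filter and without the trend, and Pnmt in these fits except the last and with array weights, a pseudocount of 32, quantile normalization or low signals raised.

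Of 17 tested actin nucleators and partners, the group Cobl belongs to, 1 was higher in AG-haESC than in E14, and 3 without E14 replicate 3, while 1 was lower without AG-haESC replicate 2 or E14 replicate 3. With all arrays, 4.38% of 13251 genes were higher and 3.61% lower. Fmn2, a formin, stood at 8.04 ± 0.50 in AG-haESC, 6.66 ± 0.16 in E14 and 5.41 ± 0.22 in MEF and was higher by 1.38 ± 0.29 (adjusted p = 0.0107). Against MEF, AG-haESC had 6 higher and 4 lower, E14 had 6 higher and 3 lower, and the 6 in E14 were 3 without MEF replicate 2. Fmn2 was at least 4.17-fold higher in AG-haESC. Lmod1, a leiomodin of smooth muscle, was at least 2.31-fold lower in AG-haESC and at least 2.18-fold lower in E14. The formin Fmn1 was lower by -2.83 ± 0.59 in AG-haESC and at least 5.25-fold lower in E14, and Pacsin1 was at least 3.60-fold higher in E14. The actin nucleators thus went both ways, and Cobl was among those higher in the stem cells.

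**Figure D4:**
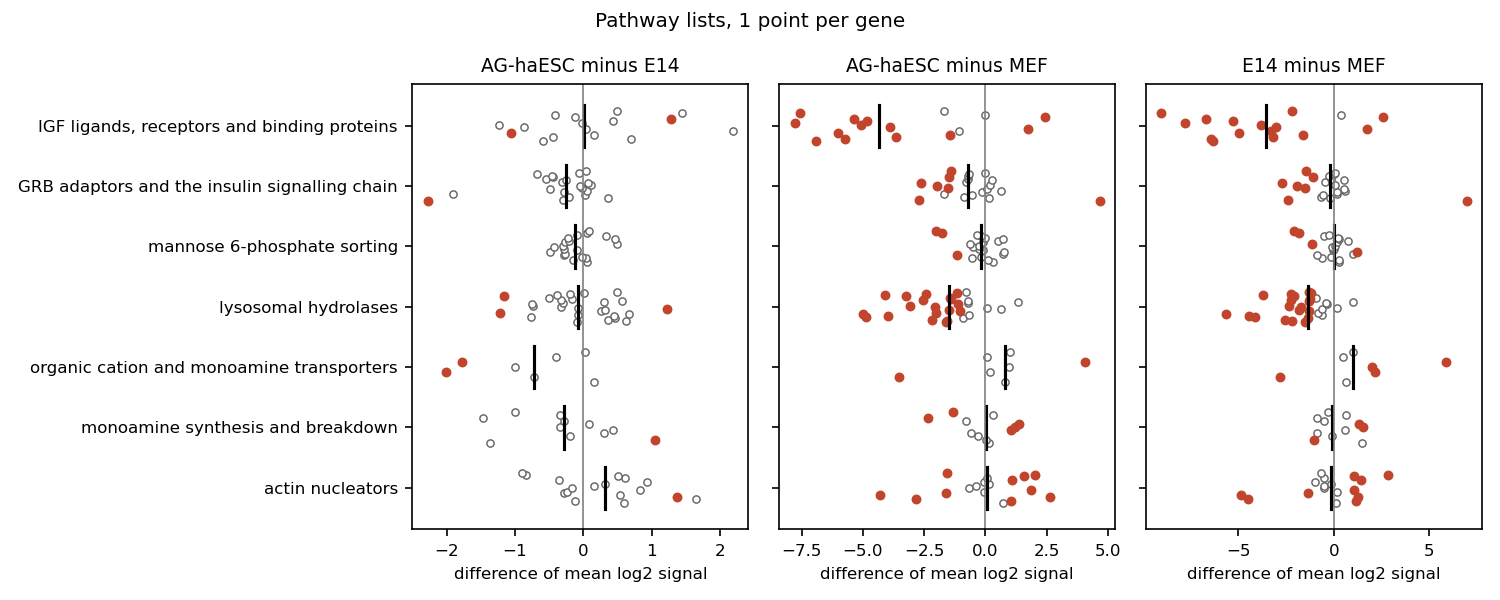
Difference of mean log2 signal (horizontal axis, scaled for each panel) of the tested genes of 7 pathway lists in the 3 comparisons. Each point is a gene on its brightest probe set, filled where it was called, and black lines mark the list's median. In AG-haESC minus E14 the medians lie between -0.72 and 0.31, and in both comparisons with MEF the IGF list and the lysosomal hydrolases lie mostly below 0.

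The genes whose signals followed each member most closely over the 10 arrays were found by the root mean squared difference of mean-centred log2 signals among 13247 genes. The arrays share their groups, so likeness follows mostly the levels of the 3 groups, and no test is attached. For Grb10 the nearest was Cpne8, a copine, at 0.25, with mean levels of 4.94 in AG-haESC, 6.45 in E14 and 9.71 in MEF, followed by Dbn1 and Speg at 0.40 each. Dbn1, the actin-binding drebrin, stood at 6.33, 7.90 and 11.21 in AG-haESC, E14 and MEF, and Speg, a muscle kinase, at 5.47, 6.72 and 9.83. Cpne8 and Speg lay below the array median in all 5 AG-haESC arrays, so their levels there hold much background. They were at least 1.41-fold and 1.70-fold lower in AG-haESC than in E14. For Igf2r they were the laminin chain Lamb2 (0.27), Tmem86a (0.28) and Arpin (0.29), an inhibitor of the ARP2/3 complex. For Ddc they were Cmss1 (0.16), Zcchc10 (0.18) and E430024I08Rik (0.18). For Cobl they were Fanci (0.20) of the Fanconi anaemia pathway, Msh6 (0.23) of mismatch repair and Rinl (0.23).

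**Figure D5:**
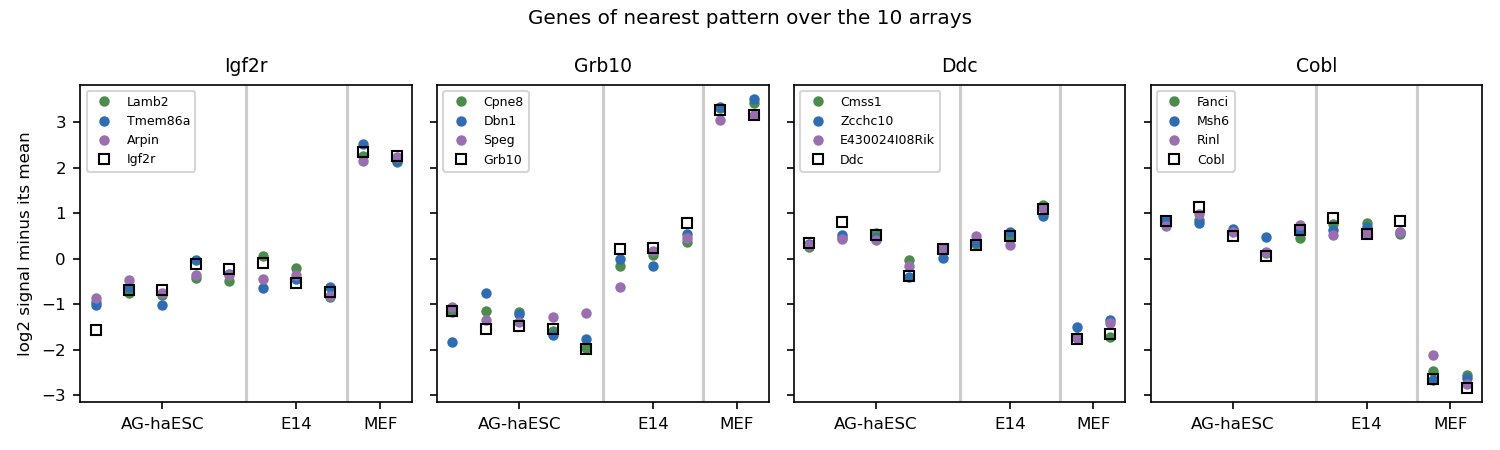
Log2 signal minus its mean over the 10 arrays (vertical axis) of Igf2r, Grb10, Ddc and Cobl (open squares) and the 3 genes nearest to each (coloured points), with 1 position per array in AG-haESC, E14 and MEF. The Grb10 panel climbs over the 3 groups, the Igf2r panel is high in MEF alone, and the Ddc and Cobl panels are low there.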

How the data were processed

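Arrays of 5 AG-haESC lines, 3 E14 samples and 2 MEF samples were compared. The deposited values are linear signal intensities per probe set, made by the authors with MAS5 per the submitters' processing notes. Each array had a 2% trimmed mean of 500, so a change in total RNA per cell cannot be seen. Signals near an array's median hold much background.

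All analysis used log2 signal. The array has 45101 probe sets with 64 controls among them, and 34945 paired with 1 gene symbol, 932 with several and 9160 with none in the platform's probe table. The 27505 probe sets brighter than the median of their array in 2 or more arrays were fitted with limma 3.58.1 in R 4.3.3 on the 10 arrays, as 3 group means with eBayes and its trend option. Two-sided p-values were adjusted by Benjamini-Hochberg over all 27505. Genes of lists were read on their brightest kept probe set. A fold is given as "at least" if the dimmer group was under the array median throughout, and that group was then put at the medians. The code of the fit was run on simulated signals with independent noise and known changes added. That run had no outlying array, so it does not test the calls given here.

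The members, pathway lists and marker lists were chosen with earlier results of these data known. Named were the members' probe sets, the partner genes where measured (1 is not reported here), up to 3 called genes of largest difference per pathway list and comparison, the called neighbours among the 8 genes on each side, and the 3 genes of nearest pattern. The E14 arrays are of 1 line and hold no spread between lines. The E14 and MEF samples are labelled biological replicates, but separate cultures or embryos are not stated, so p-values measure the spread between these samples, which may be technical. The number of arrays limits the precision.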

Additional observations from a re-analysis of the deposited data

How the results depend on the processing

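The alternatives were a floor at the array median, a pseudocount of 32, quantile normalization, no filter, a filter at 2 times the median, no trend, array weights, 2-group fits, 1 probe set per gene and leaving out each array. Of the recomputed values of member probe sets, 368 kept their direction and side of the threshold, 7 changed direction and 2 became called. With AG-haESC against E14, direction changed with array weights for Grb10 1425457_a_at (0.23), Ddc 1426215_at (0.020), M6pr 1416385_a_at (-0.086) and Insr (-0.13). With the floor it changed for Cobl 1442076_at (-0.016, against 1.01) and, at -0.081 each, for Igf2 1415931_at (against 0.087), Igf1r 1452108_at (against 1.12) and Airn 1456139_at (against 1.20), none of them called and each near or below the array medians in these groups. Leaving out 1 array gave -0.35 to 0.016 for Igf2r 1424112_at, -0.25 to 0.015 for Cobl 1434917_at, -0.19 to 0.34 for Igf2 1415931_at, -0.21 to 0.40 for Insr, -0.67 to 0.051 for Grb10 1425457_a_at, and -0.061 to 0.12 for M6pr 1416385_a_at. Cobl 1442076_at for AG-haESC against MEF ran from -0.54 to 0.093, the positive value without MEF replicate 2. For E14 against MEF it was called as lower with array weights and without E14 replicate 3. The count of member probe sets lower was thus 5 to 6 over the arrays left out.

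Counts of all probe sets for AG-haESC against E14 were 1202 higher and 795 lower. With 1 probe set per gene they were 607 and 495, array weights gave 1873 and 1448, and the range was between 964 and 1553 higher and 484 and 1040 lower with 1 array left out. List genes numbered 4 higher and 6 lower. Array weights gave 8 and 12, and leaving out 1 array gave 2 to 6 and 5 to 7. The neighbour called lower, 1, was 0 with the floor and 0 to 1 with 1 array left out. With 1 probe set per gene, AG-haESC against MEF gave 2609 higher and 2987 lower (5280 and 5489 in the main analysis). E14 against MEF gave 2764 and 2817 (5434 and 5254). Of the member probe sets, 2 were then lower in each comparison, since 1 probe set per gene is tested. With 1 array left out, AG-haESC against MEF gave 4465 to 5364 probe sets higher and 4253 to 5553 lower, and neighbours lower than MEF were 1 to 2 in both comparisons. The cause of these changes was not tested except where fewer probe sets or arrays entered. Where 1 MEF array is left, it is assumed to vary like the other groups.

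E14 and MEF share replicate numbers 1 and 2. Their deviations did not go together (Pearson's r = -0.022 across probe sets), so the numbers are not taken as pairs. With the replicate block on these 4 arrays, E14 against MEF gave 5203 probe sets higher and 5563 lower, against 5275 and 5527 on the same arrays without it, an alternative chosen after seeing the data. The counts of member probe sets stayed at 2 higher and 5 lower.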

Other observations

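The probe set 1440979_at is paired with both Airn and Igf2r and was left out of the counts. It read 3.58, 6.28, 5.33, 5.67 and 5.10 in AG-haESC, against 5.54, 3.80 and 2.76 in E14 and 5.74 and 5.76 in MEF, near or below the array medians in each group. Trophoblast markers, of interest because Slc22a2 and Slc22a3 are imprinted in the placenta, were tested for 9 of 14 genes and summed to signals of 4547 to 9705 in AG-haESC, 3235 to 4365 in E14 and 963 to 1395 in MEF. Of the 9, 1 was higher in AG-haESC than in E14, Gata3, chosen after its values were seen. The other 8 were not called, and 4.38% of 13251 genes were called as higher. Without E14 replicate 3, 4 of the 9 were higher. Over all 27505 probe sets, 964 to 1553 were higher with 1 array left out, against 1202 with all arrays. Slc22a2 lay below the array median in each array of the 3 groups.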
